A study of Arabidopsis thaliana with 6 samples.

Results

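The 41 genes described here are the heat shock proteins (HSPs), heat shock factors (HSFs) and heat-responsive co-factors of Arabidopsis thaliana, chosen by locus from a fixed list of 41 among the 32833 loci counted. They comprise 13 small HSPs, 5 cytosolic HSP70s, 3 endoplasmic reticulum BIPs, 7 HSP90s, HSP101, 9 HSFs and 3 co-factors. RNA was sequenced from dissected inflorescence meristems, from which flower primordia older than about stage 3 had been removed. The libraries labelled VGD1 (3) came from plants of genotype pCLV3>>erTurquoise, >>VGD1, and the control libraries (3) from pCLV3>>erTurquoise plants. VGD1 encodes a pectin methylesterase, a cell wall enzyme, and erTurquoise is a fluorescent protein of the endoplasmic reticulum. Both groups carried the GR-LhG4 transcription system and both received dexamethasone, which releases it. The labels give the dexamethasone dose as 30 µM in one place and 30 mM in another, and the treatment time as 72 h in one place and 48 h in another. The plants grew at 22 °C with 16 h of light and 8 h of dark, and no heat treatment is named. The CLV3 promoter is active in stem cells, while the RNA came from the whole dissected meristem. In such bulk tissue, fewer cells of a type and less RNA per cell cannot be told apart.

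In unstressed plant cells the HSFA1 factors are held inactive by HSP70 and HSP90. When proteins unfold, the chaperones are drawn away, the HSFA1 factors bind heat shock elements in promoters, and they switch on small HSPs, HSP101, inducible HSP70s and HSP90s and further factors such as HSFA2, which prolongs the response. Constitutive members of the HSP70, BIP and HSP90 families fold proteins in growing tissue without any stress.

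The libraries labelled VGD1 held 19341479, 19394881 and 18432365 counted reads, and the control libraries held 23210554, 24437872 and 6638772, so control 3 was the shallowest. VGD1 itself was at 6.59, 7.92 and 7.11 CPM (counts scaled to each library's size) in the libraries labelled VGD1, against 11.4, 12.7 and 4.80 CPM in the controls, and its log2 fold change of -0.57 had an adjusted p of 0.372 by edgeR's quasi-likelihood test. The gene named in the label was therefore not higher in its libraries, and every direction below refers to the libraries labelled VGD1 against the controls. Of 7 meristem marker genes 6 were tested and 0 called, with log2 fold changes above 0 for LFY, CLV1, UFO and STM and below 0 for WUS (-0.35) and KNAT1 (-0.06). LFY, which specifies floral meristems, had the lowest p, at 33.8, 29.1 and 28.7 CPM in the libraries labelled VGD1 and at 21.5, 17.0 and 25.3 CPM in the controls (0.57, adjusted p = 0.152 by edgeR), and LFY, CLV1 and UFO were above all controls in the libraries labelled VGD1. CLV3, the seventh marker and the stem cell peptide gene whose promoter drives the transgenes, had 3, 8 and 11 counts in the libraries labelled VGD1 and 0 counts in each control. The first library labelled VGD1 lay at 0.150 CPM, and a count of 0 in control 3 allows up to 0.450 CPM. The CLV3 counts therefore do not separate the groups. Markers of other tissues were mostly lower in the libraries labelled VGD1. Log2 fold changes were below 0 for 12 of 13 tapetum, 9 of 9 photosynthetic and 8 of 8 vascular genes, where 49.9% of all tested genes were above 0. Lower at an unadjusted p under 0.05 by edgeR were 6 vascular, 4 photosynthetic and 2 tapetum genes, against 8.36% of all tested genes. Of these markers 0 were called and 0 were at 0 in any library. The vascular genes summed to 168, 275 and 210 CPM in the libraries labelled VGD1 and to 310, 374 and 267 CPM in the controls, and the part of such tissue in the results below was not tested. Replicates are numbered in the labels without saying whether they came from separate plants or batches, so p-values measure only the spread between these libraries.

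No member of the heat shock list was called as changed in the libraries labelled VGD1 against the controls. Of the 41 genes, 31 passed the expression filter and 0 of those 31 were called at an adjusted p of 0.05 (edgeR's quasi-likelihood test, Benjamini-Hochberg over 19719 genes), where 0.416% of all tested genes were called (0.101% higher and 0.314% lower). DESeq2 and limma-voom also called 0 members. At an unadjusted p under 0.05 there was 1 member of 31 (3.23%), HSFA2, against 13.6% of all tested genes (5.21% higher and 8.36% lower). The log2 fold changes of the 31 ran between -0.34 and 0.78 with a median of -0.007, against -0.00038 over all tested genes, and 15 of the 31 were above 0, where 49.9% of all tested genes were. The ranges of the groups did not overlap for 2 members, HSFA2 (higher) and HSP90.5 (lower), or 6.45%, against 17.2% of all tested genes (8.17% higher and 9.02% lower).

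**Figure D1:**
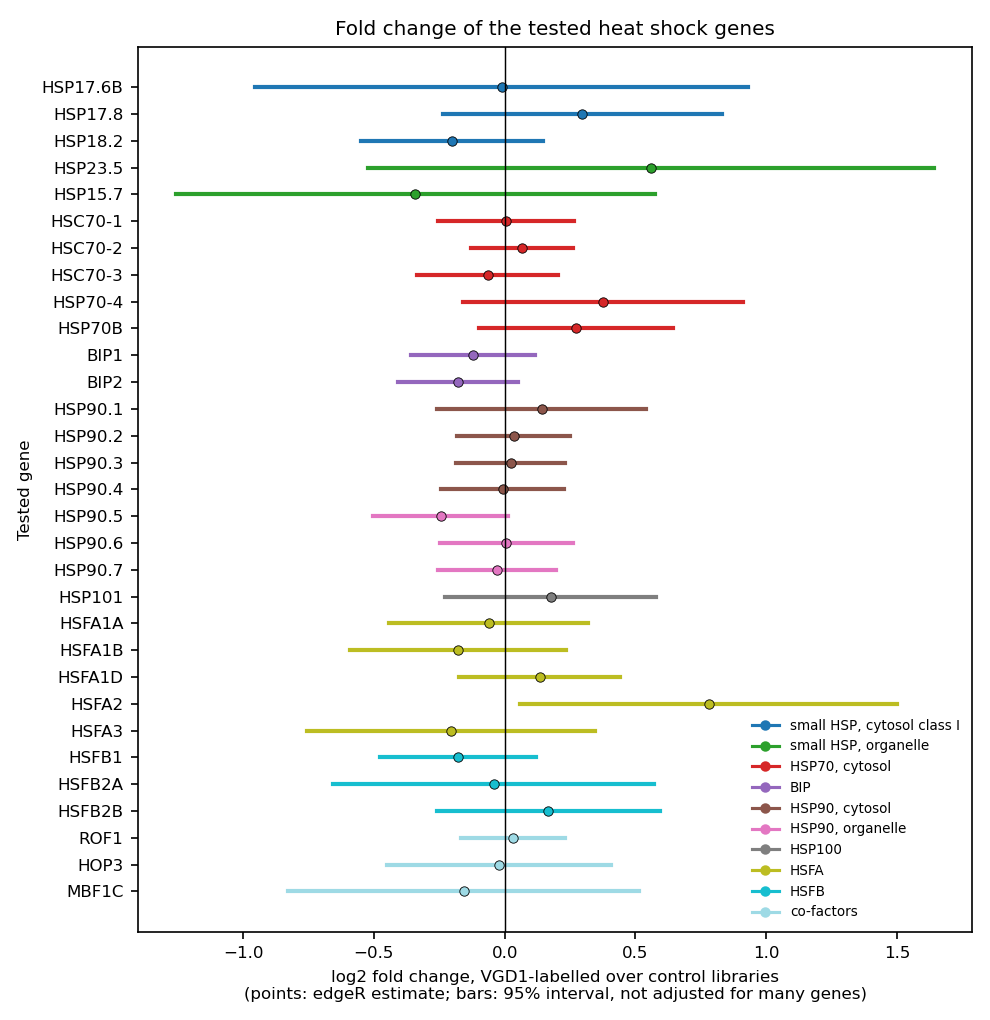
Log2 fold change of each of the 31 tested members (libraries labelled VGD1 over controls, horizontal axis), with unadjusted 95% intervals, grouped by class. HSFA2 at 0.78 is the only member whose interval excludes 0.

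The shares below are of each library's effective size, its filtered total times its TMM scaling factor. The members together took 0.650%, 0.719% and 0.705% in the libraries labelled VGD1 and 0.702%, 0.678% and 0.739% in the controls. The summed level averaged 6912 ± 365 CPM in the libraries labelled VGD1 and 7065 ± 306 CPM in the controls (SD, n = 3 each). The groups overlapped. A small number of constitutive chaperones carried most of this total, and the stress-induced members were low or at 0.

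**Figure D2:**
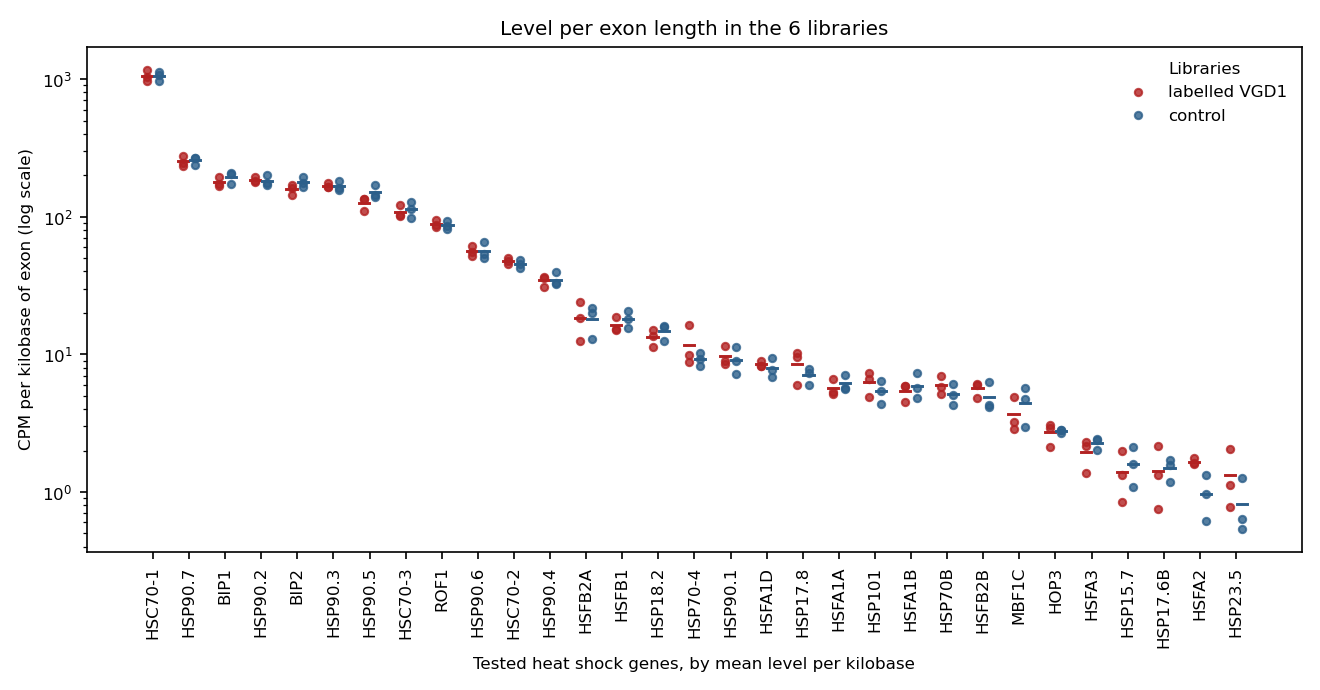
Level of each tested member in each of the 6 libraries (points; CPM per kilobase of exon, log axis), with the group mean as a bar and the libraries labelled VGD1 left of the controls. HSC70-1 is highest, at 1053 CPM per kilobase over all libraries, and the groups overlap for all members but HSFA2 and HSP90.5.

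HSFs are the transcription factors of the heat response. HSFA1A, HSFA1B and HSFA1D are the constitutive activators that start the heat response. HSFA1D (AT1G32330) was at 18.7, 17.1 and 17.3 CPM in the libraries labelled VGD1 and at 14.4, 15.9 and 19.8 CPM in the controls (log2 fold change 0.13, 95% interval -0.17 to 0.44, adjusted p = 0.739 by edgeR). HSFA1B (AT5G16820) was at 11.9, 11.8 and 9.0 CPM in the libraries labelled VGD1, against 11.3, 14.6 and 9.60 CPM in the controls, and its interval ran between -0.59 and 0.24. HSFA1A (AT4G17750) lay between 8.65 and 11.1 CPM in the libraries labelled VGD1 and between 9.44 and 12.0 CPM in the controls. All 3 activators were present in every library and their groups overlapped.

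HSFA2 (AT2G26150) is the factor that HSFA1 proteins induce in heat and that amplifies the response. It had 60, 58 and 61 counts in the libraries labelled VGD1 and 56, 28 and 12 counts in the controls, or 3.00, 3.02 and 3.29 CPM in the libraries labelled VGD1 against 2.48, 1.16 and 1.80 CPM in the controls. The libraries labelled VGD1 lay close together and above all 3 controls, which differed among themselves. The log2 fold change was 0.78 ± 0.32 (SE; 95% interval 0.06 to 1.50; 1.72-fold), and the adjusted p of 0.327 by edgeR's quasi-likelihood test did not call it, with an unadjusted value of 0.0366. The unadjusted p stayed under 0.05 in 2 of the 6 fits that left out 1 library. Without control 2 the log2 fold change was 0.43 and without control 1 it was 1.24, with adjusted p between 0.296 and 0.819 over all alternatives. Per kilobase of exon its level was 1.65 CPM in the libraries labelled VGD1 and 0.967 CPM in the controls.

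HSFA3 (AT5G03720), a factor that acts late in the heat response under DREB2A, was at 4.80, 3.02 and 5.12 CPM in the libraries labelled VGD1 and at 4.48, 5.34 and 5.25 CPM in the controls (log2 fold change -0.21, 95% interval -0.76 to 0.35). HSFA7A (AT3G51910), a heat-induced factor, had 0, 16 and 2 counts in the libraries labelled VGD1 and 2, 2 and 0 in the controls and was below the filter. Most of its counts came from the second library labelled VGD1.

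The class B factors lack the activation domain of class A, and HSFB1 and HSFB2B act as repressors of the heat response. HSFB1 (AT4G36990) was at 33.6, 27.2 and 26.7 CPM in the libraries labelled VGD1 and at 37.1, 32.4 and 27.9 CPM in the controls (log2 fold change -0.18, 95% interval -0.48 to 0.12, adjusted p = 0.622 by edgeR). HSFB2A (AT5G62020) was at 42.2, 21.8 and 32.2 CPM in the libraries labelled VGD1 and at 37.9, 34.9 and 22.8 CPM in the controls. The controls of HSFB2A lay within the range of the libraries labelled VGD1, and its interval ran between -0.66 and 0.57. HSFB2B (AT4G11660) was at 13.6, 10.9 and 13.9 CPM in the libraries labelled VGD1, against 14.2, 9.65 and 9.45 CPM in the controls (interval -0.26 to 0.59). Per kilobase of exon the class B genes HSFB2A (18.2 CPM) and HSFB1 (17.3 CPM) were the highest HSFs of the list, above HSFA1D at 8.24 CPM, over all 6 libraries.

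The heat shock element was looked for in the 250 bases before each gene's annotated start, as the letters GAANNTTCNNGAA on both strands. It was found in 4 of the 41 members (9.76%), HSFA2, HSFA7A, HSP17.6C and HSP17.4, and in 106 of 27443 promoters of the genome (0.386%). The stretches with the matches are shown because these 4 genes are heat-induced and were low or at 0 in these meristems. They come from RefSeq's TAIR10.1 and read 5′ to 3′ towards the gene, with the match in capitals.
HSFA2, chr2:11135494-11135623, plus strand: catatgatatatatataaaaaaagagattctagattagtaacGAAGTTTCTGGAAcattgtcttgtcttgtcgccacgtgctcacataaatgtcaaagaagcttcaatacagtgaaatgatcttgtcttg
HSFA7A, chr3:19264921-19265040, plus strand: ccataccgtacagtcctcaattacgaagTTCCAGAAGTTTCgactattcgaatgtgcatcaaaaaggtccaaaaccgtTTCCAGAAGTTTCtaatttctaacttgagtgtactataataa
HSP17.6C, chr1:19980179-19980298, plus strand: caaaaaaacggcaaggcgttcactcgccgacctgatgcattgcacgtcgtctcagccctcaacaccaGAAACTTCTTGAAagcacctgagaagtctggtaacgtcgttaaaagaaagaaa
HSP17.4, chr3:16984868-16984997, minus strand: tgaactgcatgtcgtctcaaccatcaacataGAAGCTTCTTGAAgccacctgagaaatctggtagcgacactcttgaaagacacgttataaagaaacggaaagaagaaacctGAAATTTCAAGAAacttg
HSFA7A and HSP17.4 hold 2 matches each. A match describes the letters and shows no binding, and for the other members the result says only that these exact letters are not in this window.

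Small HSPs bind unfolding proteins and keep them soluble, and most are nearly silent without heat. In the gene models 9 of the 13 small HSP genes (69.2%) have a single exon, against 1 of the other 28 members (3.57%), HSP70B, and 5795 of 27562 protein-coding genes (21%). Of the cytosolic class I genes, HSP18.2 (AT5G59720) was the highest, at 11.0, 13.2 and 14.8 CPM in the libraries labelled VGD1 and at 15.5, 15.7 and 12.3 CPM in the controls (log2 fold change -0.20, 95% interval -0.55 to 0.15, adjusted p = 0.634 by edgeR). HSP17.8 (AT1G07400) was at 8.74, 8.18 and 5.12 CPM in the libraries labelled VGD1 and at 6.74, 5.18 and 6.30 CPM in the controls (0.30, interval -0.24 to 0.83). These groups overlapped, and HSP18.2 made up 58.3% ± 9.67 of the class I sum in the libraries labelled VGD1 and 65.2% ± 4.73 in the controls (SD, n = 3 each). HSP17.6B (AT2G29500) lay between 0.799 and 2.29 CPM in the libraries labelled VGD1 and between 1.24 and 1.80 CPM in the controls. HSP17.4 (AT3G46230), whose promoter stretch is printed above, had 0 counts in every library. A library's count of 0 allows a level of up to 0.150 to 0.162 CPM in the libraries labelled VGD1 and up to 0.124 to 0.450 CPM in the controls, covering counting error only and taking each count as 1 sequenced fragment.

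Of the organelle small HSPs, 2 of 6 passed the filter. Mitochondrial HSP23.5 (AT5G51440) was at 2.30, 1.25 and 0.862 CPM in the libraries labelled VGD1 and at 0.709, 1.41 and 0.600 CPM in the controls (log2 fold change 0.56, 95% interval -0.52 to 1.64). Peroxisomal HSP15.7 (AT5G37670) was at 1.10, 1.67 and 0.701 CPM in the libraries labelled VGD1 and at 1.33, 1.78 and 0.900 CPM in the controls (-0.34, interval -1.26 to 0.57). The groups overlapped for both, and both intervals are wide.

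The 10 members below the filter were 8 small HSPs, BIP3 and HSFA7A. Their counts summed to 64, 114 and 24 in the libraries labelled VGD1 and to 34, 32 and 8 in the controls. The second library labelled VGD1 stood highest, with 9 of the 10 genes detected, against 6 in each of the other libraries of its label and 5, 5 and 2 in the controls. It held the highest CPM for 7 of the 10.

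Cytosolic class II HSP17.6II (AT5G12020) had 14, 18 and 2 counts in the libraries labelled VGD1 and 0, 2 and 0 counts in the controls. HSP17.6A (AT5G12030), the other class II gene listed here, had 16, 28 and 4 counts in the libraries labelled VGD1 and 10, 4 and 0 in the controls. Class I HSP17.6C (AT1G53540) had 18, 12 and 0 counts in the libraries labelled VGD1 and 4, 0 and 0 in the controls. For these cytosolic genes the first and second libraries labelled VGD1 held most of the counts, and the third held 4 or fewer. In CPM, HSP17.6II was nominally higher in each library labelled VGD1 than in any control, and the groups overlapped for HSP17.6A and HSP17.6C. For HSP17.6II this rested on 2 counts in the third library labelled VGD1 (0.108 CPM) and 2 in control 2 (0.083 CPM). A count of 0 in control 3 allows up to 0.450 CPM, so these counts do not separate the groups.

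Chloroplast HSP21 (AT4G27670) had 2, 10 and 4 counts in the libraries labelled VGD1 and 0 in each control, so it too was only nominally higher in each library labelled VGD1. A count of 0 allows up to 0.124 to 0.450 CPM in the controls. The level from 2 counts in the first library labelled VGD1 lay below that range, so the HSP21 counts do not separate the groups either. Endoplasmic reticulum HSP22.0 (AT4G10250) and mitochondrial HSP23.6 (AT4G25200) had counts only in the second library labelled VGD1, 6 and 4, and 0 elsewhere. HSP26.5 (AT1G52560) had 6, 16 and 6 counts in the libraries labelled VGD1 and 6, 18 and 2 in the controls. When the filter was dropped, none of the 9 genes with counts was called, and the lowest adjusted p was 0.217 (HSP17.6II, edgeR). Unadjusted p by edgeR was under 0.05 for HSP17.6II (0.00715), HSP21 (0.0170) and HSP17.6C (0.0429), each with 18 or fewer counts in every library. In the filtered fit 13.6% of all tested genes were under 0.05, and the share in the fit without the filter was not computed. All counts of these 10 genes were even numbers, and 77.0% to 80.9% of all counts between 1 and 20 in the libraries were even. Whether 2 counts stand for 1 sequenced fragment was not tested. Marker genes of the tapetum, a layer of the anther, summed to 1123, 359 and 557 CPM in the libraries labelled VGD1 and to 1138, 1291 and 1127 CPM in the controls. The second library labelled VGD1 had the lowest tapetum sum and the most counts of these 10 genes. That order did not hold between the first, with 64 such counts at 1123 CPM, and the third, with 24 at 557 CPM. The part of tapetum tissue in these counts was not tested.

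**Figure D3:**
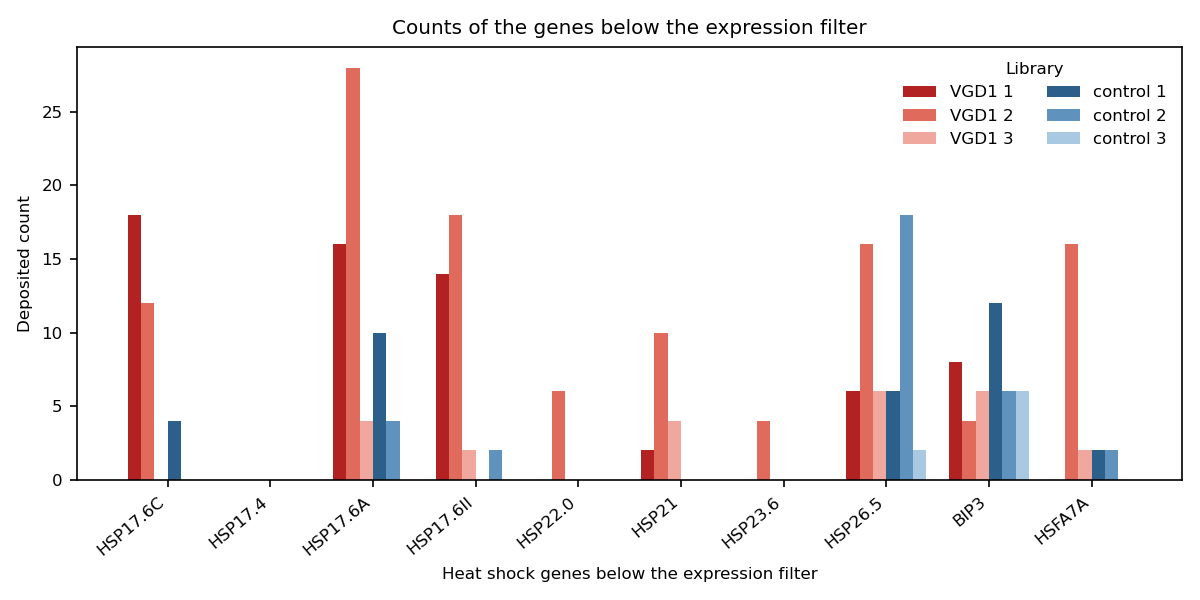
Read counts of the 10 members below the expression filter in each library (vertical axis, counts), with the libraries labelled VGD1 left of the controls. The second library labelled VGD1 holds 114 of these counts and the third 24, against 8 to 34 in the controls.

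HSP70 chaperones fold new and stress-damaged proteins. HSC70-1 (AT5G02500), the main constitutive cytosolic HSP70, was the highest member, at 2486, 2977 and 2626 CPM in the libraries labelled VGD1 and at 2880, 2467 and 2713 CPM in the controls. Its mean was 2696 ± 253 CPM in the libraries labelled VGD1 and 2687 ± 208 CPM in the controls (SD, n = 3 each), and the 95% interval of the difference was -0.26 to 0.27 on the log2 scale. It took 84.0% ± 0.949 of the cytosolic HSP70 sum in the libraries labelled VGD1 and 83.9% ± 1.11 in the controls. HSC70-3 (AT3G09440), another constitutive form, was at 329, 392 and 325 CPM in the libraries labelled VGD1 and at 366, 315 and 415 CPM in the controls (log2 fold change -0.065, interval -0.33 to 0.20), and HSC70-2 (AT5G02490) stayed between 105 and 124 CPM in all 6 libraries.

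The heat-inducible HSP70s were far lower. HSP70-4 (AT3G12580) was at 41.5, 22.2 and 25.1 CPM in the libraries labelled VGD1 and at 23.2, 20.7 and 25.8 CPM in the controls. The first library labelled VGD1 alone lay above all others, and the log2 fold change of 0.38 (adjusted p = 0.540 by edgeR) was 0.053 without it. HSP70B (AT1G16030) was at 17.9, 13.3 and 14.9 CPM in the libraries labelled VGD1 and at 11.1, 12.9 and 15.6 CPM in the controls (0.27, interval -0.10 to 0.65). Per kilobase of exon, HSC70-1 was at 1053 CPM, HSP70-4 at 10.5 CPM and HSP70B at 5.56 CPM over all 6 libraries.

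BIPs are the HSP70s of the endoplasmic reticulum, and BIP3 is the form induced when unfolded proteins accumulate there. BIP1 (AT5G28540) was at 476, 492 and 554 CPM in the libraries labelled VGD1 and at 490, 577 and 589 CPM in the controls (log2 fold change -0.12, 95% interval -0.36 to 0.12). BIP2 (AT5G42020) was at 391, 437 and 462 CPM in the libraries labelled VGD1 and at 450, 531 and 480 CPM in the controls (-0.18, interval -0.41 to 0.05, adjusted p = 0.494 by edgeR). Both groups overlapped for both genes. BIP3 (AT1G09080) had 8, 4 and 6 counts in the libraries labelled VGD1 and 12, 6 and 6 counts in the controls. The stress-induced form was thus near the count floor in both groups. BIP1 and BIP2 share 10.1% and 10.6% of their 100-base exon windows with each other, so reads of these could have been split or lost in counting.

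HSP90 chaperones mature signalling proteins and receptors. HSP90.2, HSP90.3 and HSP90.4, constitutive cytosolic forms with nearby locus numbers on chromosome 5, kept a fixed order. HSP90.2 (AT5G56030) was at 517, 523 and 561 CPM in the libraries labelled VGD1 and at 506, 486 and 574 CPM in the controls (log2 fold change 0.03, 95% interval -0.18 to 0.25). It held 49.5% ± 0.223 of the cytosolic HSP90 sum in the libraries labelled VGD1 and 49.2% ± 0.292 in the controls. HSP90.3 (AT5G56010) was at 428, 431 and 459 CPM in the libraries labelled VGD1 and at 419, 407 and 473 CPM in the controls, and HSP90.4 (AT5G56000) at 76.1, 87.8 and 89.1 CPM in the libraries labelled VGD1, against 80.3, 79.5 and 96.6 CPM in the controls. These 3 share 5.86% to 11.7% of their 100-base exon windows with each other, which could blur their shares. HSP90.1 (AT5G52640), the heat-inducible cytosolic form, was at 24.3, 17.9 and 18.7 CPM in the libraries labelled VGD1 and at 15.1, 18.8 and 23.7 CPM in the controls (0.14, interval -0.26 to 0.54), or 1.89% ± 0.377 of the sum in the libraries labelled VGD1 and 1.80% ± 0.285 in the controls.

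The organelle HSP90s differ in their compartment. HSP90.5 (AT2G04030), the chloroplast form needed for plastid protein import, was at 308, 379 and 380 CPM in the libraries labelled VGD1 and at 390, 403 and 474 CPM in the controls. All 3 libraries labelled VGD1 lay below all 3 controls, with gaps between neighbouring libraries of the groups that were small beside the spread within them. The log2 fold change was -0.24 ± 0.12 (SE; 95% interval -0.50 to 0.01), with an adjusted p of 0.397 by edgeR, and it was -0.15 without the first library labelled VGD1 and -0.16 without control 3. The adjusted p lay between 0.295 and 0.706 over the alternatives. The 9 photosynthetic marker genes summed to 10477, 12405 and 11193 CPM in the libraries labelled VGD1. In the controls they summed to 14975, 15076 and 11212 CPM. All 9 log2 fold changes were below 0, and none of the genes was at 0 in any library. These sums overlapped between the groups, and control 3 had the lowest control sum but the highest HSP90.5 level. The part of photosynthetic tissue in the HSP90.5 values was not tested.

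Mitochondrial HSP90.6 (AT3G07770) was at 167, 178 and 199 CPM in the libraries labelled VGD1 and at 162, 173 and 211 CPM in the controls (log2 fold change 0.006, 95% interval -0.25 to 0.26). HSP90.7 (AT4G24190), or SHEPHERD, is the form of the endoplasmic reticulum, and its loss mutant has enlarged meristems like those of clavata mutants. It was at 711, 750 and 837 CPM in the libraries labelled VGD1 and at 726, 808 and 809 CPM in the controls (-0.03, interval -0.25 to 0.20, adjusted p = 0.940 by edgeR). Per kilobase of exon it was the highest HSP90, at 255 CPM, ahead of HSP90.2 at 184 CPM and HSP90.3 at 167 CPM over all 6 libraries. The endoplasmic reticulum stress element was searched as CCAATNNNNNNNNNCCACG on both strands in the same windows. It was found in HSP90.7 alone of the 41 members (2.44%), against 84 of 27443 promoters (0.306%). That share rests on 1 gene. For the other members, BIPs included, the result says only that these exact letters are not in this window. The stretch is shown because HSP90.7 was the most abundant member of the endoplasmic reticulum.
HSP90.7, chr4:12556059-12556118, minus strand: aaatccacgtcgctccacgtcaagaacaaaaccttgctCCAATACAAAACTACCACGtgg

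**Figure D4:**
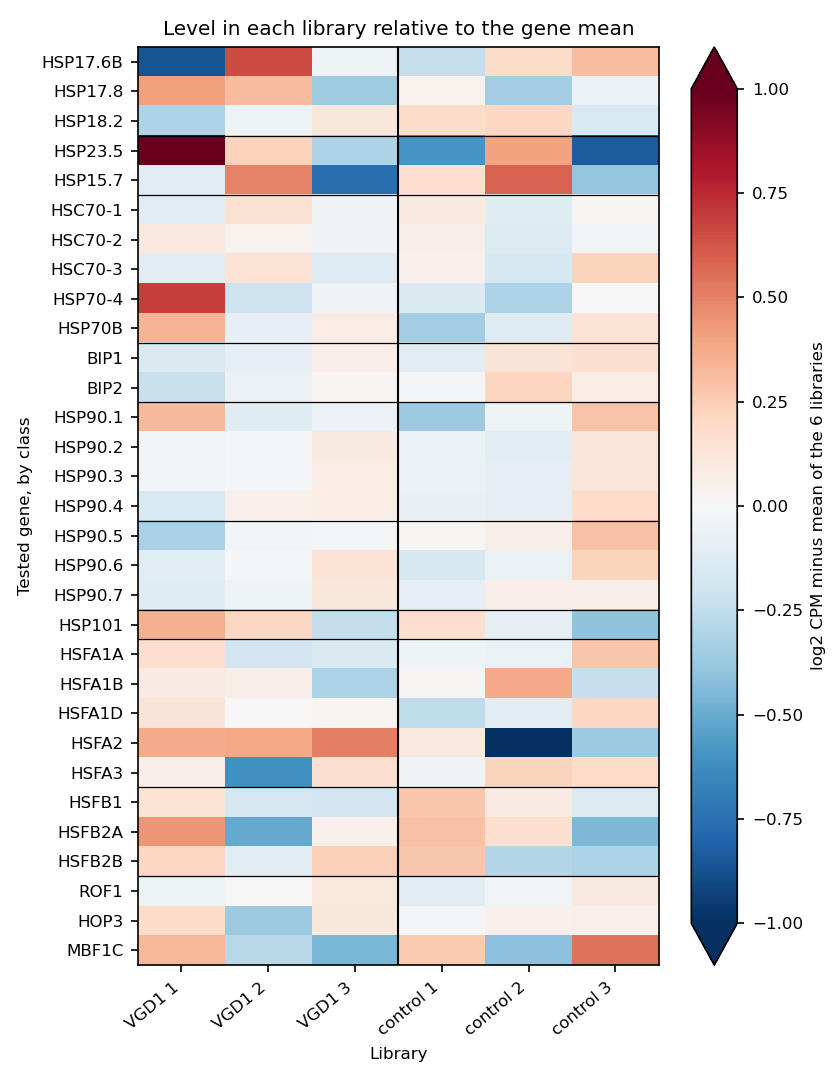
Level of each tested member in each library as a log2 difference from its mean over all 6 libraries, with the libraries labelled VGD1 in the left columns. The highest library differs from gene to gene: the first library labelled VGD1 is highest for 9 members and control 3 for 10.

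HSP101 (AT1G74310), the disaggregase that thermotolerance depends on, was at 24.6, 22.1 and 16.3 CPM in the libraries labelled VGD1 and at 21.6, 18.1 and 14.5 CPM in the controls (log2 fold change 0.18, 95% interval -0.23 to 0.58). The co-chaperone ROF1 (AT3G25230), an immunophilin that binds HSP90, was at 196, 202 and 218 CPM in the libraries labelled VGD1 and at 188, 199 and 216 CPM in the controls (0.03, interval -0.17 to 0.23). HOP3 (AT4G12400), which links HSP70 to HSP90, was at 8.39, 5.73 and 7.98 CPM in the libraries labelled VGD1 and at 7.27, 7.62 and 7.65 CPM in the controls (-0.02, interval -0.45 to 0.41). The groups overlapped for all of these. MBF1C (AT3G24500), a heat-induced transcriptional co-activator, was at 5.94, 3.91 and 3.45 CPM in the libraries labelled VGD1 and at 5.67, 3.56 and 6.90 CPM in the controls (-0.16, interval -0.83 to 0.51, adjusted p = 0.879 by edgeR).

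How tightly these comparisons bound a difference went with abundance. The 12 most abundant tested members, down to HSP90.4, varied by 1.16 to 1.54 times between their highest and lowest library, with a median of 1.22, and their 95% intervals spanned 0.706-fold to 1.20-fold. The other 19 varied by 1.38 to 3.83 times, with a median of 1.69, and their intervals spanned 0.418-fold to 3.12-fold. The ends of that span came from HSP15.7 and HSP23.5, which are among the 6 members under 5 CPM. For the 13 members at 5 to 50 CPM the intervals spanned 0.635-fold to 1.88-fold. Each gene's unadjusted interval leaves room for changes within its own bounds. The 8 members that overlap a gene on the opposite strand (HSP101, HSC70-3, MBF1C, HSP17.4, HSFB2B, HOP3, HSFA3 and HSFA1B) are uncertain too, because no source used here says whether reads were counted by strand.

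Other genes of the pathway, listed by role, gave 0 calls as well. Of 12 further HSFs, 6 were tested and 3 had an unadjusted p under 0.05. HSFA1E, the fourth HSFA1 activator, was at 8.84, 7.14 and 6.95 CPM in the libraries labelled VGD1 and at 5.58, 5.05 and 5.10 CPM in the controls (log2 fold change 0.54, adjusted p = 0.257 by edgeR). HSFB4, a class B factor known from the root stem cell niche, was at 19.4, 21.9 and 22.4 CPM in the libraries labelled VGD1 and at 16.0, 15.3 and 18.0 CPM in the controls (0.39, adjusted p = 0.212 by edgeR). HSFA8 was at 7.29, 4.58 and 5.71 CPM in the libraries labelled VGD1 and at 7.14, 9.94 and 11.1 CPM in the controls (-0.62, adjusted p = 0.284 by edgeR). The libraries labelled VGD1 lay above all controls for HSFA1E and HSFB4, 2 of the 6 (33.3%), against 8.17% of all tested genes. They overlapped the controls for HSFA8.

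All 21 further chaperones were tested, and their median log2 fold change was -0.01. HSA32, a gene of acquired thermotolerance, was at 7.69, 7.29 and 7.17 CPM in the libraries labelled VGD1 and at 5.01, 5.71 and 4.20 CPM in the controls (0.51, adjusted p = 0.263 by edgeR). The chloroplast HSP70 cpHSC70-2 was at 178, 239 and 201 CPM in the libraries labelled VGD1 and at 266, 233 and 282 CPM in the controls (-0.33, adjusted p = 0.266 by edgeR). These 2 were the only ones of the 21 (9.52%) with an unadjusted p under 0.05 by edgeR, against 13.6% of all tested genes. The groups overlapped for cpHSC70-2 and not for HSA32. The chloroplast HSP70 next in order of p, cpHSC70-1, was at 352, 396 and 387 CPM in the libraries labelled VGD1 and at 417, 421 and 434 CPM in the controls, and the libraries labelled VGD1 lay below all controls (-0.16, adjusted p = 0.452 by edgeR).

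All 12 genes of endoplasmic reticulum folding and stress were tested, with 0 at an unadjusted p under 0.05, a lowest adjusted p of 0.532, a median of -0.05 and 9 of the 12 below 0. The protein disulfide isomerase PDI5 was at 218, 176 and 229 CPM in the libraries labelled VGD1 and at 216, 256 and 236 CPM in the controls (-0.19). The calreticulin CRT1b was at 311, 327 and 354 CPM in the libraries labelled VGD1 and at 371, 380 and 342 CPM in the controls (-0.14). BZIP60, whose spliced form switches on BIP3, was at 62.2, 46.9 and 49.5 CPM in the libraries labelled VGD1 and at 52.7, 48.0 and 45.0 CPM in the controls (0.11). The groups overlapped for all of these. Of 4 further heat-induced genes 3 were tested, with 0 at an unadjusted p under 0.05. DREB2A, the factor upstream of HSFA3, was at 15.8, 11.9 and 14.3 CPM in the libraries labelled VGD1 and at 12.6, 10.2 and 10.3 CPM in the controls (0.33, adjusted p = 0.421 by edgeR), and its groups overlapped.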

How the data were processed

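The deposited files hold read counts per locus, 1 file per library, made by the authors with RNA STAR per the file headers; the submitters' processing notes name TAIR10 and DESeq2 without a role, and the counting tool, annotation and strand setting are not given in any source used. The RNA was selected by polyA. The 6 count files were joined by locus (32833 loci, 7374 without a count). Genes were filtered with filterByExpr, scaled with TMM and tested with edgeR 4.0.16's quasi-likelihood test (R 4.3.3), libraries labelled VGD1 over controls, without covariates, with p-values adjusted over all 19719 tested genes (Benjamini-Hochberg, threshold 0.05). Levels are CPM with TMM factors. Levels between genes are per kilobase of annotated exon (RefSeq TAIR10.1, by locus ID; all 41 members matched, and the count files carry no coordinates). Standard errors and 95% intervals come from the fit and are unadjusted. A library's floor is 3 counts. Floors cover counting error only. No pair of libraries agreed within sampling noise. Alternatives were DESeq2 1.42.0, limma-voom (limma 3.58.1), RLE scaling, library totals, no filter, a 1 CPM filter, a replicate block and each library left out. The code was tested on simulated data. Named with every value were members with an unadjusted p under 0.05, the 2 most abundant and the 2 with the largest fold change of each class (all in classes of up to 4), and members below the filter, by counts; of each further pathway list, at most 3 genes, those with the smallest p. Other members are given as ranges and marker lists by counts and sums, with LFY as the meristem marker of smallest p. The members, gene lists and rule were chosen with earlier results of these data known.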

Additional observations from a re-analysis of the deposited data

How the results depend on the processing

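Under all 13 alternatives the number of members called was 0. The 10 class medians moved by less than the SD of the class's median log2 CPM between libraries of a group. Leaving out 1 of 3 libraries can hardly move them by more than that SD, so this does not measure how stable they are. The signs of the class medians were not stable: 7 of the 10 changed sign under at least 1 alternative, with ranges as wide as -0.11 to 0.52 for the organelle small HSPs and -0.29 to 0.19 for class B HSFs, and those of HSP70, BIP and HSP101 kept it. The number of all tested genes called was 82 (20 higher, 62 lower). It was 139 (43 higher, 96 lower) without the filter, 430 (137 and 293) with DESeq2 and 45 (11 and 34) with limma-voom, and it ran between 4 and 202 when each library was left out in turn, 4 without control 2 and 202 without the first library labelled VGD1. The cause was not tested.

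The labels do not say whether same-numbered libraries were paired. Deviations of same-numbered libraries from their group means correlated at -0.010, 0.033 and 0.095, and those of differently numbered ones at -0.092 to 0.059. With 3 libraries per group these values cannot decide whether the libraries were paired. A replicate block gave 194 called genes (75 higher, 119 lower) and 0 members.

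The log2 fold changes of 16 of the 31 tested members kept their sign under every alternative, and 15 did not, none of them called. With library totals alone, which moved the median of all genes to 0.034, HSP17.6B was at 0.025, HSP90.4 at 0.024, HSP90.7 at 0.0018, HSFB2A at 0.00066 and HOP3 at 0.017. HSP90.4 was at 0.0042 without the filter and at 0.0037 with limma-voom, and HSFB2A at 0.00068 with DESeq2. With each library left out, the log2 fold changes ran between -0.45 and 0.30 for HSP17.6B, -0.011 and 0.26 for HSP90.1, -0.015 and 0.11 for HSP90.2, -0.020 and 0.090 for HSP90.3, -0.057 and 0.079 for HSP90.4, -0.064 and 0.12 for HSP90.6, -0.096 and 0.024 for HSP90.7, -0.060 and 0.066 for HSC70-1, -0.16 and 0.033 for HSC70-3, -0.18 and 0.020 for HSFA1A, -0.25 and 0.019 for HSFA1B, -0.34 and 0.0086 for HSFA3, -0.29 and 0.19 for HSFB2A, -0.13 and 0.14 for HOP3 and -0.012 and 0.085 for ROF1.

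HSFA2 had an unadjusted p under 0.05 in the reported fit and with RLE scaling, library totals, no filter, the 1 CPM filter, limma-voom, and without the first library labelled VGD1 or control 1. It did not with DESeq2 or the replicate block, where HSP90.5 did, or without any of the other 4 libraries. Other members were under 0.05 when libraries or the filter were left out: HSFB1 without the first library labelled VGD1, HSP70-4 without the second, HSP17.8, HSP17.6A, HSP17.6C and HSP17.6II without the third, HSP17.6II without each control, HSP17.6A without control 1, and HSP17.6C, HSP17.6II and HSP21 without the filter. Control 3, with the fewest reads, limits what can be seen of the scarce genes.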
